A study of Homo sapiens with 9 samples.

Results

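The insulin-like growth factor binding proteins IGFBP2, IGFBP3, IGFBP4, IGFBP5, IGFBP6 and IGFBP7 were followed as 6 of the 58735 genes measured, taken by gene name, and 4 of them, IGFBP3, IGFBP4, IGFBP6 and IGFBP7, were among the 11845 genes expressed highly enough to be tested. The study grew GBM43, a single glioblastoma line, in three-dimensional hyaluronic acid invasion devices and measured polyadenylated RNA by sequencing. Pooled core and invasive cells from devices given 50 µM MK801, an NMDA receptor blocker, made up the MK801 group. Control devices gave the other groups, a scalpel separating the cells that had moved into the gel, the invasive group, from the cells left behind, the core group. Each group had 3 libraries. The control devices are described both as having culture medium and as having the DMSO vehicle, and no group holds an MK801 core or an MK801 invasive fraction alone, so an MK801 library is a mixture whose proportions are not given.

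IGF-binding proteins are secreted proteins that hold IGF1 and IGF2 with high affinity, keep them from or carry them to the type 1 IGF receptor, and release them when proteases cut the binding protein. Several also act without IGF, through heparan sulphate, integrins or the extracellular matrix. IGFBP7 binds IGFs only weakly and is best known as a matrix and basement membrane protein of vessels, and in glioblastoma IGFBP2 and IGFBP3 are the members most often described as tumour-associated.

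Levels are FPKM (fragments scaled to gene length and to a library total set by the authors, which differed from the summed gene fragments). They are per length and so can be compared between genes, and a mean is given ± SD over the 3 libraries of a group. Differences are on the log2(FPKM + 1) scale with their standard error (SE), and adjusted p is limma's Benjamini-Hochberg value over all tested genes with a threshold of 0.05. Nothing in the descriptions ties the libraries of a group to separate cultures, and the tests then speak only of the variation among these libraries. Recovered depth was 15.6 to 54.4 M fragments (M, mega) per library, the deepest being MK801 replicate 3. The number of genes at or above 1 FPKM was 10061 to 11442 in MK801, 10635 to 11057 in invasive and 11308 to 11811 in core libraries, and the expression-weighted GC content of the RNA was 50.5 to 54.2%, 52.7 to 54.4% and 49.8 to 51.1% in the same groups. Of the glioma and astroglial marker list, 5 of 12 genes reached 1 FPKM in some library, namely VIM, CD44, EGFR, SOX2 and PDGFRA. OLIG2, CHI3L1 and AQP4 were at 0 fragments throughout. Fewer cells of a type and less RNA per cell cannot be told apart in such bulk RNA.

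Per gene length, IGFBP4 was the most abundant IGF-binding protein transcript in every library, with IGFBP3 next in 8 of them (IGFBP6 in MK801 replicate 1), then IGFBP6, then IGFBP7 and IGFBP5 at low levels, with IGFBP2 almost absent. Promoters are shown for IGFBP4 and IGFBP3, because these 2 genes made up most of the pool and had estimates of opposite sign between invasive and core libraries. The windows run from 250 bases before to 50 bases after the RefSeq start (GRCh38.p14), IGFBP4 at chr17:40443200-40443499 on the plus strand and IGFBP3 at chr7:45921223-45921522 on the minus strand. Capitals mark matches, on either strand, to the GC box GGGCGG, the TATA box TATAAA, the related TATATA, and the hypoxia-response core in its forms ACGTG and GCGTG.
IGFBP4: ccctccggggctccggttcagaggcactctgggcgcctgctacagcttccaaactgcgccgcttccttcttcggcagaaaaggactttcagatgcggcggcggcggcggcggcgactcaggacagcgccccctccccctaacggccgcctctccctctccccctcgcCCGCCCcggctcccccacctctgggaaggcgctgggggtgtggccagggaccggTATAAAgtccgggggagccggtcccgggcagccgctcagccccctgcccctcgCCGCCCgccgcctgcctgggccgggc
IGFBP3: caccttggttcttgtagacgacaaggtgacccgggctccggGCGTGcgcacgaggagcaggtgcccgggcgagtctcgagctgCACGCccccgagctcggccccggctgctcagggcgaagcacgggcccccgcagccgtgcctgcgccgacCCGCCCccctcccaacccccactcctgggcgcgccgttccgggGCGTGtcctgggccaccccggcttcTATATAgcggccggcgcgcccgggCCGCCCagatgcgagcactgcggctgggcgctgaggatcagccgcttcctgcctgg
Both windows were rich in G and C, 74.0% for IGFBP4 and 74.7% for IGFBP3, beside a median of 58.7% over 35116 RefSeq promoters. Both held 2 GC boxes, a motif present in 45% of those promoters. The IGFBP4 window had a TATAAA (11.5% of promoters) and no hypoxia-response core. The IGFBP3 window had a TATATA (3.99% of promoters) and 3 GCGTG (36.5% of promoters) and no ACGTG (21.4%). The AP-1 motif TGACTCA, in 4.95% of promoters, was in neither window. A match describes letters in the window and not a bound site. Of the 6 binding proteins, 5 had an entry in the promoter table, all but IGFBP7.

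IGFBP4, a binding protein known mainly as an inhibitor of IGF action until it is cut, lies on chromosome 17 (40443461 to 40457731, plus strand, ENSG00000141753). It was at 90.0, 51.9 and 19.9 FPKM in MK801 replicates 1, 2 and 3. Invasive replicates were at 83.4, 127 and 76.8 FPKM, and core replicates at 25.5, 19.4 and 20.8 FPKM. All 3 invasive libraries lay above all 3 core libraries. In FPKM the MK801 libraries were spread over both ranges, replicate 1 within the invasive range and replicate 3 within the core range. The invasive mean was 95.8 ± 27.4 FPKM and the core mean 21.9 ± 3.21 FPKM (n = 3 each), a ratio of 4.37. The difference of 2.05 (SE 0.45, 95% confidence interval 1.04 to 3.06) was the 21st highest of the 11845 genes, with an adjusted p of 0.0855 in the limma fit of all 9 libraries, where no gene passed the threshold. Core and invasive libraries of the same number also share the stem of their column names, which may mark a common device, although the labels do not say so. With the replicate number as a block the adjusted p was 0.0424 for IGFBP4 and 0.0424 for IGFBP7 (limma), and 11.7% of tested genes were called higher, while with the block and the GC trend of each library removed it was 0.0689 and 0.0666 and no gene was called. Fitted on the 6 control libraries alone, the same difference had an adjusted p of 0.00288 (limma), and it also passed on leaving out MK801 replicate 1 or 3 from the 9-library fit (adjusted p of 0.0145 and 0.00568, limma). These calls are common in this comparison, since 26.3% of tested genes were called higher in invasive libraries in the 6-library fit, 20.2% without MK801 replicate 1 and 21.9% without replicate 3, and 32% had all invasive libraries above all core libraries.

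IGFBP7, the low-affinity matrix-associated member on chromosome 4 (57030773 to 57110385, minus strand, ENSG00000163453), had the same group order at a lower level. MK801 replicates 1, 2 and 3 were at 2.93, 1.68 and 0.375 FPKM, resting on 80, 50 and 47 fragments. Invasive replicates were at 2.91, 4.75 and 4.67 FPKM (94, 165 and 180 fragments) and core replicates at 0.112, 0 and 0.46 FPKM (6, 0 and 20 fragments). Core levels were thus near the limit of detection, the 0 of core replicate 2 allowing up to 0.0905 FPKM for counting error only (3 fragments), while every invasive library was well above them. The mean was 4.11 ± 1.04 FPKM in invasive and 0.19 ± 0.24 FPKM in core libraries (n = 3 each), a ratio of 21.6 that is poorly determined, since it was 73.6 without core replicate 3 and 14.4 without core replicate 2. The difference was 2.10 on the log scale, where the added 1 FPKM shrinks it at such low levels (SE 0.36, interval 1.30 to 2.90), the 18th highest, with an adjusted p of 0.069 by limma over 9 libraries and 0.00288 over the 6 control libraries. Without MK801 replicate 1 or 3 it was 0.0131 or 0.00486 (limma). IGFBP7 passed the expression filter through its 3 invasive and 2 of its MK801 libraries and none from the core. The gene overlaps POLR2B on the opposite strand by 396 bases. POLR2B was at 7.96 to 17.8 FPKM over all libraries, including core replicate 2, where IGFBP7 had 0 fragments. Whether the overlap affected the IGFBP7 counts, the use of strand not being given, was not tested.

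IGFBP3, the main carrier of IGF in blood and a gene known to respond to hypoxia, lies on chromosome 7 (45912245 to 45921874, minus strand, ENSG00000146674) and was lowest in the MK801 group. MK801 replicates 1, 2 and 3 were at 9.80, 11.1 and 12.6 FPKM, invasive replicates at 13.2, 18.6 and 9.99 FPKM and core replicates at 23.5, 18.3 and 15.0 FPKM. The MK801 libraries all lay below the core libraries, and the invasive libraries overlapped both. MK801 and core averaged 11.2 ± 1.40 and 18.9 ± 4.28 FPKM (n = 3 each), a difference of -0.70 (SE 0.26, interval -1.28 to -0.12) with an adjusted p of 0.235 by limma. Invasive minus core was -0.44 (SE 0.26, interval -1.02 to 0.14, adjusted p of 0.215 by limma), and MK801 minus invasive was -0.26 (interval -0.84 to 0.32, adjusted p of 0.926 by limma). IGFBP3 was the only 1 of the 4 tested binding proteins whose MK801 and core libraries did not overlap, against a background of 8.82% of tested genes lower and 9.89% higher in MK801 without overlap. Between MK801 and invasive libraries all 4 overlapped in FPKM, where 5.22% of tested genes were higher and 5.63% lower without overlap. Rescaled so that every library has the same sum (TPM), IGFBP3 was at 22, 33 and 53.9 in MK801, 43, 48.4 and 34.8 in invasive and 95.2, 67.4 and 65.4 in core libraries. On that scale both MK801 and invasive libraries lay below all core libraries, but so did the invasive libraries for 43.1% and the MK801 libraries for 7.19% of tested genes, and the median gene itself moved by -0.30 between invasive and core libraries.

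IGFBP6, which prefers IGF2 over IGF1, lies on chromosome 12 (53097436 to 53102345, plus strand, ENSG00000167779) and overlapped between the groups in each comparison. It was at 12.5, 7.17 and 3.52 FPKM in MK801, 4.66, 8.42 and 4.99 FPKM in invasive and 5.13, 5.80 and 3.49 FPKM in core replicates 1, 2 and 3. The highest and nearly the lowest value were both in MK801 libraries. Invasive minus core was 0.26 (SE 0.38, interval -0.58 to 1.09, adjusted p of 0.601 by limma), and its sign turned to -0.06 in TPM and to -0.47 once each library's trend with gene GC content was removed. MK801 minus core was 0.47 (interval -0.36 to 1.30, adjusted p of 0.383 by limma), and -0.10 after the GC trend was removed.

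IGFBP5, which binds matrix and bone mineral, and IGFBP2, a frequent glioma marker, are neighbours on chromosome 2 (216672105 to 216695525 on the minus strand and 216632828 to 216664436 on the plus strand), 7669 bases apart, and neither reached the filter. IGFBP5 was at 0.581, 0.623 and 0.306 FPKM in MK801, 0.667, 2.70 and 0.358 FPKM in invasive and 0.647, 0.705 and 0.448 FPKM in core replicates 1, 2 and 3. The invasive mean of 1.24 ± 1.27 FPKM rested on replicate 2, with 313 of the 431 invasive fragments, and the other libraries of the 3 groups overlapped. IGFBP2 had 0 fragments in all 3 MK801 libraries, 4 in invasive replicate 1 and 0 in the other invasive libraries, and 2, 1 and 0 in core replicates 1, 2 and 3. At these depths a count of 0 allows at most 0.0445 FPKM of IGFBP2. IGFBP1, a binding protein that is not among the 6 followed here and lies next to IGFBP3 on chromosome 7, had 0 fragments in all 9 libraries.

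**Figure D1:**
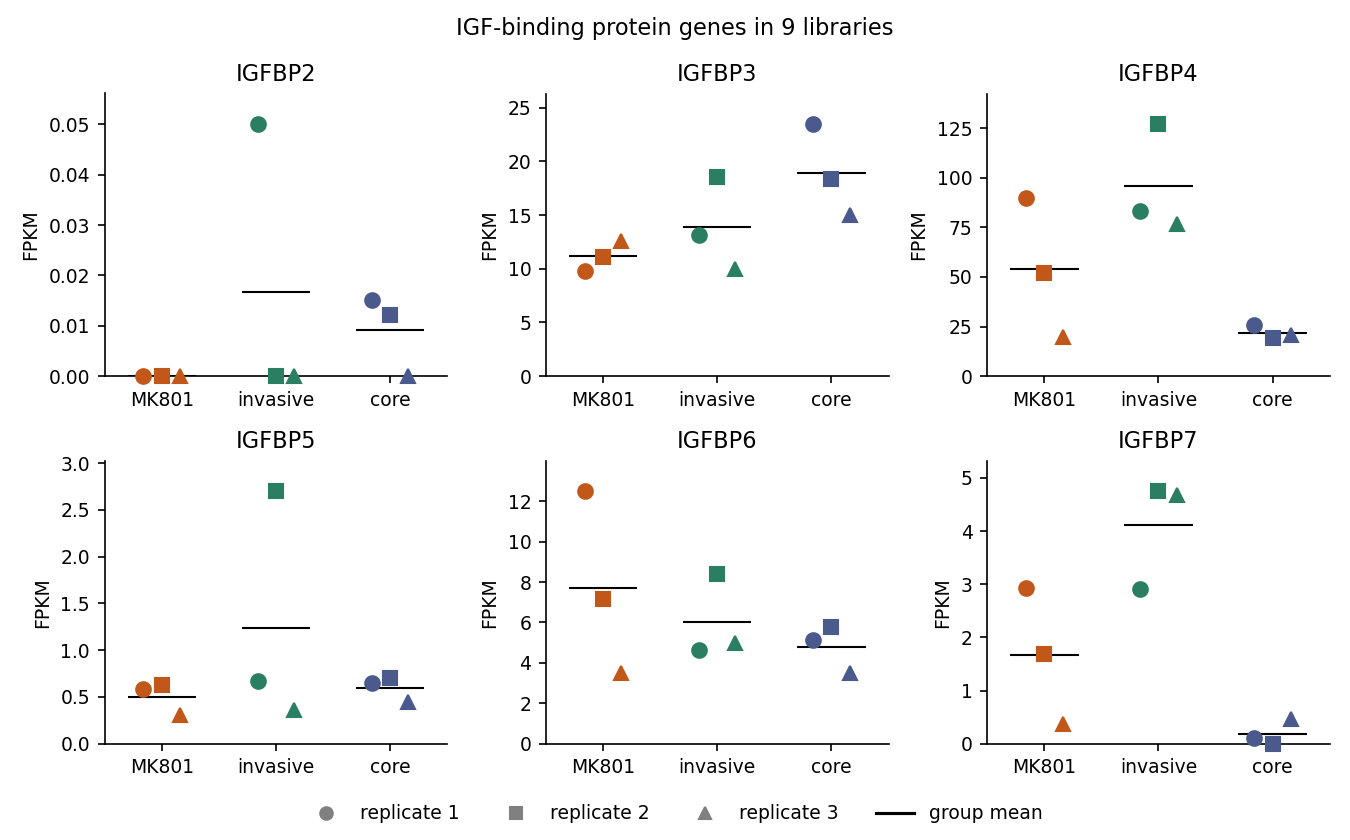
FPKM of IGFBP2 to IGFBP7 (vertical axes, linear, each with its own range) in the 3 MK801, 3 invasive and 3 core libraries, with a point per library and a bar at each group mean. IGFBP4 and IGFBP7 lie higher in all invasive than in all core libraries, the MK801 libraries of both genes are spread over that range, and IGFBP3 is below all core libraries in all MK801 libraries.

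The composition of the binding protein pool differed between the fractions. IGFBP4 made up 54.2 to 77.7% of the summed FPKM of IGFBP2 to IGFBP7 in MK801, 78.7 to 79.5% in invasive and 43.9 to 51.8% in core libraries. IGFBP3 made up 8.47 to 34.3%, 10.3 to 12.5% and 37.3 to 42.8% of the pool in the same groups. In core libraries the pool was thus split between IGFBP4 and IGFBP3 at ratios of 1.09, 1.06 and 1.39 in replicates 1, 2 and 3, whereas invasive libraries held 6.34, 6.85 and 7.68 times as much IGFBP4 as IGFBP3. The MK801 ratios were 9.18, 4.68 and 1.58 in replicates 1, 2 and 3, from above the invasive range to just above the core range. The ratio of IGFBP4 to IGFBP6 placed them otherwise. It was 7.2, 7.24 and 5.65 in MK801, 17.9, 15.1 and 15.4 in invasive and 4.98, 3.35 and 5.96 in core libraries, so every MK801 library was below every invasive library. A ratio within a library does not move with the scaling of that library, and it shows unequal change of its 2 genes, not that either was constant. It is not freed of a trend with GC content, which was 62.5% for IGFBP4, 52.7% for IGFBP3 and 63.0% for IGFBP6. The MK801 ratios to IGFBP3 were in the order of the libraries' GC contents (54.2, 53.1 and 50.5%). The part of GC content in the ratios and shares was not tested, and other gene pairs were not counted. IGFBP6 held 10.1 ± 0.62% of the pool in MK801, 4.94 ± 0.427% in invasive and 10.4 ± 2.38% in core libraries, and IGFBP7 1.96 ± 0.816%, 3.51 ± 1.14% and 0.449 ± 0.61% (SD, n = 3 each). The summed level of the 6 genes was 116, 72.4 and 36.7 FPKM in MK801, 105, 162 and 96.8 FPKM in invasive and 54.9, 44.3 and 40.2 FPKM in core replicates 1, 2 and 3, so the invasive libraries lay above the core libraries and 2 of the MK801 libraries did too. With 3 libraries a side the smallest two-sided p from exact permutation is 0.1, and no p is given for the shares.

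**Figure D2:**
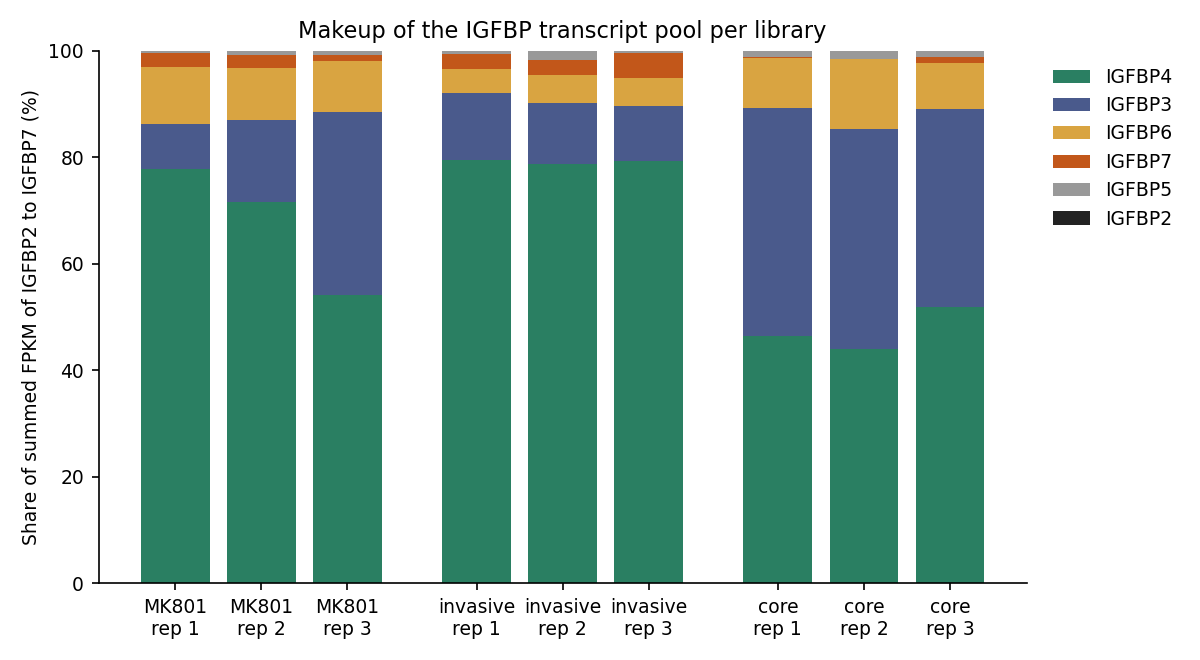
Share of each binding protein in the summed FPKM of IGFBP2 to IGFBP7 (vertical axis, percent), stacked, in each MK801, invasive and core library. IGFBP4 takes 78.7 to 79.5% of the pool in invasive libraries and 43.9 to 51.8% in core libraries, and the 3 MK801 libraries run from 77.7% in replicate 1 to 54.2% in replicate 3.

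Of the 4 tested binding proteins, IGFBP4, IGFBP6 and IGFBP7 varied more among the MK801 libraries than among the core libraries, and IGFBP3 varied less. The SD of IGFBP6 was 4.51 FPKM in MK801 and 1.18 FPKM in core libraries. The share of all tested genes with a wider spread in MK801 was not counted. For IGFBP4 the MK801 mean was 53.9 ± 35.1 FPKM against 21.9 ± 3.21 FPKM in the core (n = 3 each), a difference of 1.03 (SE 0.45, interval 0.02 to 2.03, adjusted p of 0.235 by limma), and MK801 minus invasive was -1.02 (interval -2.03 to -0.02, adjusted p of 0.59 by limma). For IGFBP7 the MK801 mean was 1.66 ± 1.28 FPKM against 0.19 ± 0.24 FPKM in the core, a difference of 1.05 (SE 0.36, interval 0.25 to 1.85, adjusted p of 0.235 by limma), and MK801 minus invasive was -1.05 (interval -1.84 to -0.25, adjusted p of 0.441 by limma). In TPM, IGFBP4 was at 202, 154 and 85.1 in MK801 and 273, 331 and 267 in invasive replicates 1, 2 and 3. IGFBP7 was at 6.57, 4.99 and 1.6 and at 9.51, 12.4 and 16.3. Both genes were thus lower in all MK801 than in all invasive libraries on that scale, while IGFBP3 and IGFBP6 overlapped. The share of all tested genes without overlap was not counted for this comparison in TPM. Each MK801 library was also left out in turn. Leaving out replicate 3, all 4 tested binding proteins passed the limma threshold against the core, IGFBP4 at 1.61, IGFBP7 at 1.46 and IGFBP6 at 0.88 above it and IGFBP3 at -0.78 (adjusted p of 0.00792, 0.0082, 0.0343 and 0.0356). In that fit 25.2% of tested genes were called higher and 24.9% lower in MK801. Leaving out MK801 replicate 1 none passed, with IGFBP4 at 0.54, IGFBP7 at 0.71, IGFBP6 at 0.09 and IGFBP3 at -0.61 (adjusted p of 0.592, 0.551, 0.907 and 0.551 by limma). Leaving out MK801 replicate 2 none passed either, with values of 0.93, 0.98, 0.45 and -0.70 in the same order. The comparisons with MK801 and with invasive libraries share the core libraries, so their directions are not independent of each other.

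The levels of IGFBP4, IGFBP6 and IGFBP7 moved with the GC content and the number of detected genes of the libraries. Across the 9 libraries the weighted GC content of the RNA had a Pearson r of 0.95 with IGFBP4, 0.86 with IGFBP7, 0.81 with IGFBP6 and -0.35 with IGFBP3, as a description of points that share each library's composition. With the number of genes at or above 1 FPKM, r was -0.82 for IGFBP4, -0.695 for IGFBP7, -0.91 for IGFBP6 and 0.40 for IGFBP3. MK801 replicates 1, 2 and 3 had GC contents of 54.2, 53.1 and 50.5%, in the same order as their IGFBP4 levels. With each library's trend over gene GC content removed, invasive minus core was 1.33 for IGFBP4 and 2.02 for IGFBP7, past the limma threshold in the 6 control libraries alone (adjusted p of 0.0081 and 0.0103), where 9.43% of tested genes were called higher, and not in all 9 (0.0672 and 0.0538). IGFBP3 was at -0.70 there, with an adjusted p of 0.0435 by limma over the 6 control libraries, where 7.86% of tested genes were called lower. With detected genes as a covariate in the model, invasive minus core was 1.21 for IGFBP4 and 1.64 for IGFBP7, neither past the threshold (adjusted p of 0.087 and 0.0807 by limma). MK801 minus core was then 0.10 for IGFBP4 and 0.54 for IGFBP7 (adjusted p of 0.972 and 0.809 by limma), and 0.46 for IGFBP4 with the GC trend removed (adjusted p of 0.453 by limma). MK801 minus invasive passed the limma threshold with the detected-genes covariate, for IGFBP4 at -1.11 and IGFBP7 at -1.10 (adjusted p of 0.0175 and 0.041). In that fit 4.2% of tested genes were called lower in MK801. Neither passed with the GC trend removed, at -0.87 and -1.06 (adjusted p of 0.142 and 0.166 by limma).

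**Figure D3:**
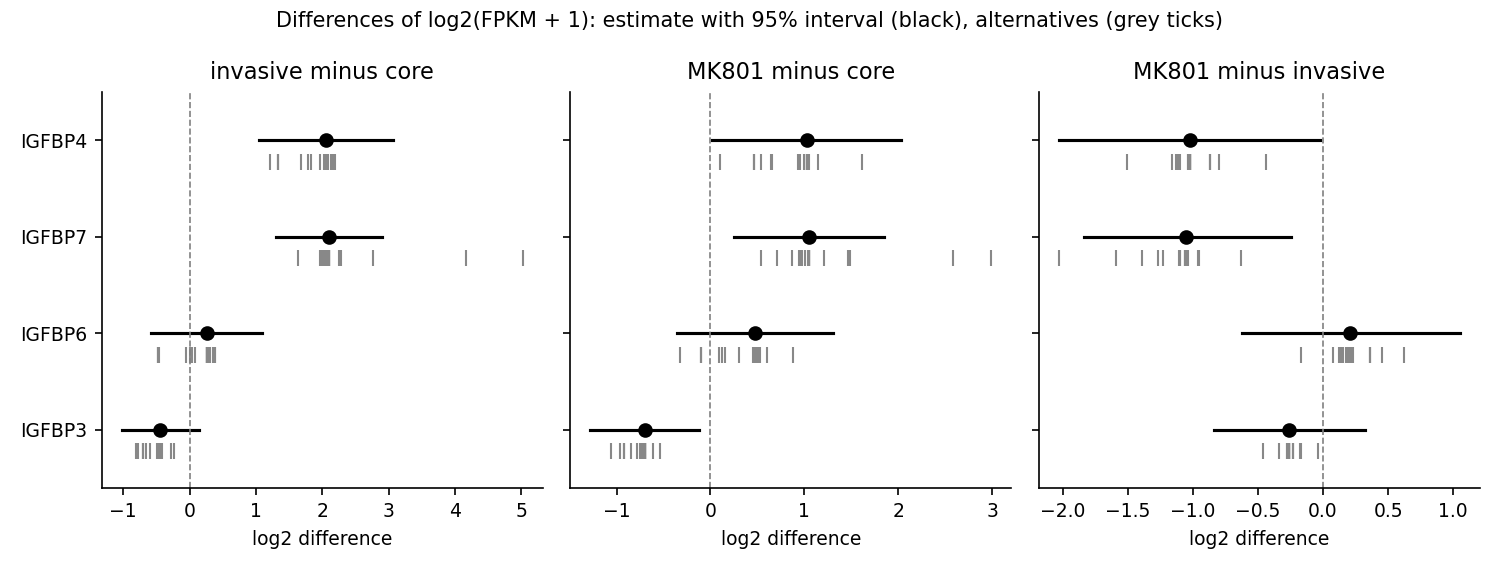
Difference on the log2(FPKM + 1) scale (horizontal axis) for the 4 tested binding proteins in each comparison, as the 9-library estimate with its 95% interval and as the values under the alternative settings. Invasive minus core lies above 0 for IGFBP4 and IGFBP7 under all settings run, and IGFBP6 falls on both sides of 0.

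Among marker lists of other cell types, the sums of 4 were higher in all invasive than in all core libraries and the neuronal sum overlapped. Of single tested genes, 32% were higher in all invasive than in all core libraries. Fibroblast and pericyte markers, 8 of 10 of which reached 1 FPKM in some library, summed to 89.3 to 212 FPKM in MK801, 365 to 642 in invasive and 79.1 to 155 in core libraries. Most of that sum was COL1A1 and COL1A2, but every marker of the list except RGS5 had a higher invasive than core mean. PDGFRB averaged 24.8 FPKM in MK801, 48.1 FPKM in invasive and 11.6 FPKM in core libraries, and THY1 2.18, 5.30 and 1.46 FPKM. The pericyte marker RGS5 went the other way, at 0.267 FPKM in MK801, 0.0989 FPKM in invasive and 0.505 FPKM in core libraries. Endothelial markers, 2 of 8 at that level, summed to 1.34 to 1.65, 1.79 to 5.47 and 1.44 to 1.57 FPKM, and the junction protein CDH5 averaged 0.233 ± 0.283 FPKM in MK801, 1.78 ± 1.23 FPKM in invasive and 0.0295 ± 0.0377 FPKM in core libraries. Of the other endothelial markers, PECAM1 averaged 0.718, 0.975 and 0.933 FPKM and KDR 0.485, 0.391 and 0.43 FPKM in the same order of groups, and VWF, CLDN5, TEK, ERG and EGFL7 averaged at most 0.07 FPKM in any group. Microglial and macrophage markers, 1 of 8 at that level (CSF1R) and TYROBP at 0, summed to 1.76 to 4.83, 4.36 to 5.84 and 1.82 to 2.78 FPKM. Most of that sum was CSF1R, which averaged 2.68, 4.81 and 1.98 FPKM. PTPRC, AIF1, CX3CR1 and CD68 had lower invasive than core means, P2RY12 a higher one and ITGAM was at 0 in both. All of these averaged at most 0.191 FPKM in any group. Neuronal markers, 3 of 8, summed to 4.55 to 7.83, 3.98 to 6.11 and 3.84 to 5.10 FPKM, and oligodendrocyte markers, 1 of 6 (CNP) with MOG and MAG at 0, to 15.0 to 26.7, 23.1 to 26.4 and 12.4 to 15.7 FPKM. The part of these markers in the IGFBP4 and IGFBP7 differences was not tested.

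The genes whose log2(FPKM + 1) was most like each binding protein over the 9 libraries were taken among the 5890 protein-coding genes that averaged 5 FPKM or more. IGFBP4 was followed most closely by ACSF2 (r = 0.995), NT5DC2 (r = 0.995) and the cytoskeletal actin gene ACTB (r = 0.994), and 1263 of those genes had an r above 0.9 with it. IGFBP7 was most like CABLES2 (r = 0.984), the secretory kinase gene FAM20C (r = 0.974) and the semaphorin receptor gene PLXND1 (r = 0.971), with 316 genes above 0.9, and its r with IGFBP4 was 0.96. IGFBP3 had only 3 such genes, CA12 (r = 0.94), TMEM43 (r = 0.91) and JAM2 (r = 0.906), and its r with IGFBP4 was -0.38. CA12, a carbonic anhydrase of the cell surface, averaged 65.9 ± 6.14 FPKM in MK801, 84.0 ± 18.7 FPKM in invasive and 119.8 ± 18.9 FPKM in core libraries. IGFBP6 was most like BLVRB (r = 0.986), RPS28 (r = 0.976) and NAA80 (r = 0.975), with 373 genes above 0.9. The closest gene to IGFBP5, CTNNA1, had r = 0.902 but a Spearman rho of 0.517, since IGFBP5 was set apart by invasive replicate 2.

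Around the binding proteins, the IGF ligands were not detected and their receptors were low. IGF1, IGF2 and INS had 0 fragments in all 9 libraries. However, the 2 IGF2 gene models overlap each other and INS-IGF2 almost entirely, and INS overlaps INS-IGF2 by 1431 bases on the same strand. Reads shared between such models may go to none of them. IGF1R, the type 1 receptor, was at 1.22, 2.01 and 1.96 FPKM in MK801, 1.25, 1.58 and 1.37 FPKM in invasive and 1.76, 1.65 and 1.91 FPKM in core replicates 1, 2 and 3. Its invasive minus core difference was -0.21 (SE 0.20, adjusted p of 0.429 by limma). IGF2R, which clears IGF2 by carrying it to lysosomes, was at 3.90, 5.65 and 4.14 FPKM in MK801, 7.09, 6.86 and 5.95 FPKM in invasive and 5.37, 4.19 and 4.80 FPKM in core libraries. Invasive libraries were the highest for IGF2R, with a difference of 0.40 from the core (SE 0.20, adjusted p of 0.159 by limma).

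Of the 15 receptors and adaptors of IGF and insulin, 12 were tested. In invasive libraries 4 had higher and 8 lower estimates than in core, 2 and 6 of them without overlap beside 32% and 32.8% of all tested genes, and the median difference was -0.21 beside -0.02 over all tested genes. The adaptor SHC1 was at 134, 108 and 53.8 FPKM in MK801, 126, 165 and 104 FPKM in invasive and 68.2, 63.0 and 48.7 FPKM in core libraries, 1.11 higher in invasive than core (SE 0.35, adjusted p of 0.106 by limma). PIK3CA, a catalytic subunit of PI3 kinase, and SOS1, an exchange factor for RAS, had estimates of -1.22 and -0.95 (adjusted p of 0.114 and 0.135 by limma). In MK801 minus core 5 estimates were higher and 7 lower (median -0.05, all genes 0.00), and in MK801 minus invasive 7 were higher and 5 lower (median 0.16).

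Of the 15 IGFBP proteases and their regulators, 11 were tested, and 7 were higher and 4 lower in invasive than in core libraries, 6 and 3 of them without overlap beside 32% and 32.8% of all tested genes (median 0.70). HTRA1, a secreted serine protease that cuts IGF-binding proteins, was at 45.4, 33.2 and 16.4 FPKM in MK801, 112, 112 and 95.4 FPKM in invasive and 36.4, 14.0 and 20.5 FPKM in core replicates 1, 2 and 3. All invasive libraries were above the others, by 2.22 over the core (SE 0.40, adjusted p of 0.075 by limma, and 0.003 in the 6 control libraries alone), and MK801 minus invasive was -1.83 (SE 0.40, adjusted p of 0.2 by limma). The plasminogen activators PLAT and PLAU and the lysosomal protease CTSD were also without overlap, with invasive minus core estimates of 1.34, 1.04 and 1.58 (adjusted p of 0.0938, 0.104 and 0.106 by limma). PAPPA, the protease that cuts IGFBP4 in the presence of IGF, and STC1, a stanniocalcin that inhibits PAPPA, went the other way, and are named for those roles after their values were seen. PAPPA was at 0.604, 1.04 and 1.71 FPKM in MK801, 0.578, 0.456 and 0.983 FPKM in invasive and 1.63, 1.54 and 1.71 FPKM in core libraries, an invasive minus core difference of -0.66 (SE 0.24, adjusted p of 0.109 by limma). STC1 was at 137, 268 and 369.6 FPKM in MK801, 97.1, 169.5 and 110.1 FPKM in invasive and 218, 329 and 239 FPKM in core libraries, a difference of -1.07 (SE 0.38, adjusted p of 0.108 by limma). For both, every invasive library was below every core library and MK801 replicate 1 lay within the invasive range and replicate 3 within or above the core range. In MK801 minus invasive 2 of the 11 estimates were higher and 9 lower, 4 of the lower ones without overlap beside 5.63% of tested genes (median -0.69), and in MK801 minus core 6 were higher and 5 lower (median 0.10).

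The list of other superfamily genes and of the ternary complex had 6 of 11 genes tested, 4 with higher and 2 with lower estimates in invasive than in core libraries (median 1.11), 4 and 1 without overlap beside 32% and 32.8% of all tested genes. CCN1 and CCN2, matricellular proteins, had estimates of 1.62 and 1.97 (adjusted p of 0.059 each by limma), CCN4 1.37 (0.0816) and the endothelial proteoglycan gene ESM1 -1.49 (0.0986). CCN1 was at 75.1, 82.1 and 89.3 FPKM in MK801, 147, 98.9 and 158 FPKM in invasive and 41.6, 38.8 and 46.5 FPKM in core libraries. CCN2 was at 17.7, 25 and 18.1 FPKM in MK801, 54.3, 33.6 and 49.1 FPKM in invasive and 12.9, 7.64 and 12.4 FPKM in core libraries. For both genes the 3 groups did not overlap at all. The share of all tested genes with 3 separate groups was not counted. MK801 estimates were 4 higher and 2 lower than core (median 0.29) and 1 higher and 5 lower than invasive (median -0.48).

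Among 14 cell surface and matrix partners of the binding proteins, 11 were tested, with 7 higher and 4 lower in invasive than in core (median 0.78), 6 and 3 without overlap beside 32% and 32.8% of all tested genes. SDC1, a heparan sulphate proteoglycan, was at 12.6, 7.93 and 2.45 FPKM in MK801, 17.9, 17.5 and 16.2 FPKM in invasive and 3.54, 1.60 and 2.54 FPKM in core replicates 1, 2 and 3. The invasive libraries stood above all others, by 2.39 over the core (SE 0.43, adjusted p of 0.0744 by limma), and the MK801 libraries were again spread from near the invasive range to the core range. The matrix gene FN1, fibronectin, had an invasive minus core estimate of 1.87 (adjusted p of 0.0868 by limma). Caveolin CAV1 and the integrin subunit ITGB1 were lower in all MK801 than in all core libraries, with estimates of -0.82 and -1.20 (adjusted p of 0.235 each by limma). Both were also lower in all invasive than in all core libraries, at -0.58 and -0.63 (adjusted p of 0.131 and 0.23 by limma). Of the 11 genes, 2 were higher and 2 lower in MK801 than core without overlap, beside 9.89% and 8.82% of all tested genes. MK801 estimates in the list were 6 higher and 5 lower than core (median 0.00) and 3 higher and 8 lower than invasive (median -0.25). Of the IGF2 mRNA-binding proteins, which share the name but bind RNA and not IGF, 2 of 3 were tested, IGF2BP2 at -0.77 and IGF2BP3 at -0.44 in invasive minus core (adjusted p of 0.112 and 0.408 by limma), and in MK801 minus core both were lower (median -0.41). No gene of these 6 lists passed the threshold in the 9-library fit in any comparison, and in the 6 control libraries alone 18 of the 42 tested were called higher and 10 lower in invasive libraries, beside 26.3% and 25.9% of all tested genes.

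**Figure D4:**
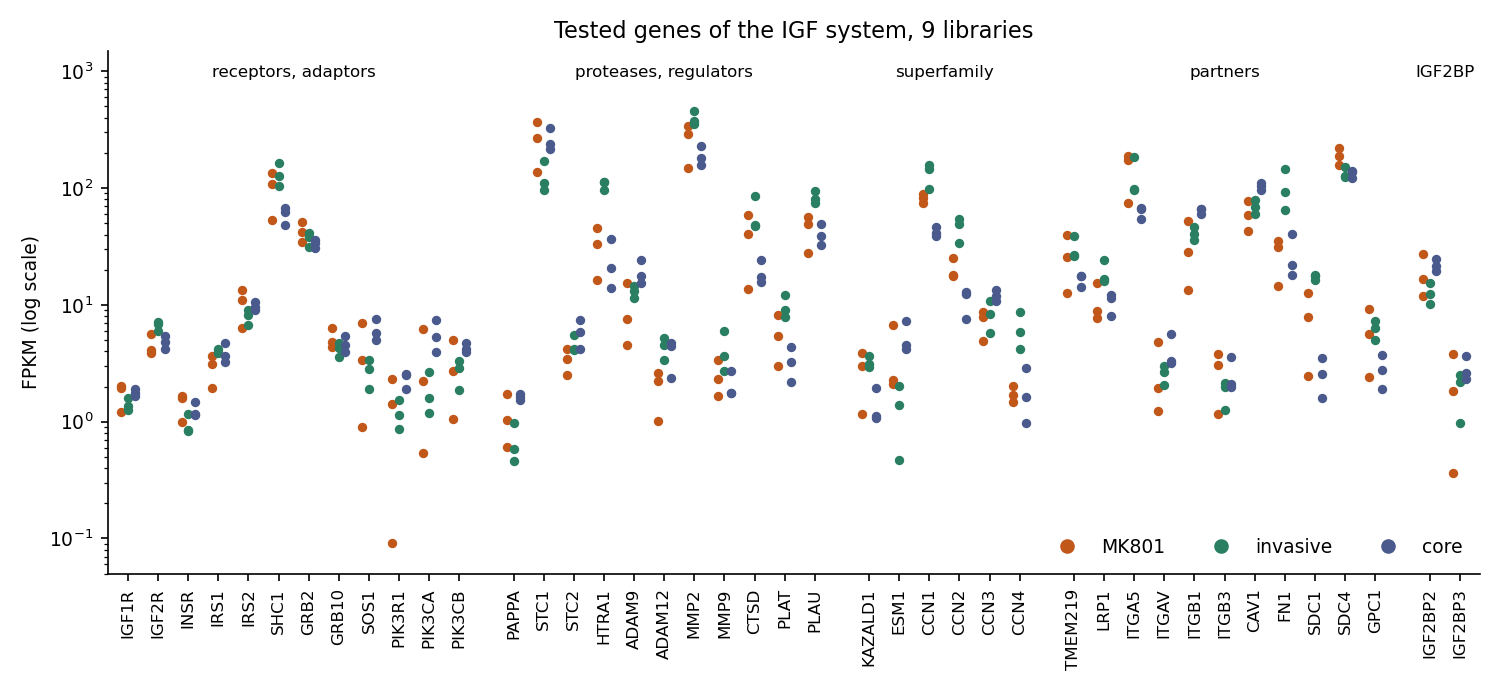
FPKM (logarithmic axis) of the 42 tested genes of the lists (receptors and adaptors, proteases and regulators, superfamily, partners, IGF2 mRNA-binding proteins), with a point per MK801, invasive and core library. HTRA1 is at 95.4 to 112 FPKM in invasive libraries and at most 45.4 FPKM in the others, while STC1 and PAPPA are lower in all invasive than in all core libraries.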

How the data were processed

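The authors deposited FPKM per gene with the gene length used, in 1 table of 9 libraries, and each column was matched to a library by the column name in its label, with 0 value columns unmapped. Per the submitters' processing notes the tools were HISAT2 2.0.5 and featureCounts 1.5.0-p3 on GRCh38, and whether strand was used is not given in the sources used here. Gene identifiers matched GENCODE release 29. FPKM times length came out as whole fragments within 0.01 for all values, so depth (15.6 to 54.4 M fragments per library) was recovered. The authors' library total divided by the sum of recovered gene fragments was 0.7695 to 1.1949 in MK801, 0.7884 to 1.0648 in invasive and 1.1019 to 1.2294 in core libraries. The sources used here do not say why. Median-of-ratios scaling of these FPKM left invasive minus core at 2.05 for IGFBP4, the same as without it.

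FPKM was analysed as log2(FPKM + 1) for the 11845 genes at or above 1 FPKM in at least 3 libraries. Limma 3.58.1 in R 4.3.3 fitted a mean per group to all 9 libraries (empirical Bayes with trend, 6 residual degrees of freedom, two-sided, Benjamini-Hochberg, threshold 0.05). No replicate block was used, as the labels do not state what a number marks. Alternatives were other pseudocounts and filters, TPM and median-of-ratios scaling, the replicate block, removal of each library's loess trend over gene GC content (span 0.3), the compared groups alone, genes detected as a covariate, leaving out each library, and limma-voom on the fragments. The code was tested on simulated data. The binding proteins and the lists of related genes and markers were chosen with earlier results of these data known. For each list, up to 4 tested genes with the smallest p in any comparison are named, with all ligands and the type 1 receptor, and for each binding protein the 3 most correlated genes. Intervals for fragments cover counting error only. Promoter sequences are from RefSeq (GRCh38.p14).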

Additional observations from a re-analysis of the deposited data

How the results depend on the processing

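In the 9-library limma fit 0 genes passed in each comparison, with 4461 (invasive minus core), 2509 (MK801 minus core) and 978 (MK801 minus invasive) below an unadjusted p of 0.05, and limma-voom called 0 in each as well (3573, 1273 and 1133 unadjusted). For invasive minus core the count was 2525 with the replicate block, 0 with the block and the GC trend removed, 6179 in the compared groups alone, 2048 there with the GC trend removed, 15 with genes detected as covariate, and 0 to 4888 on leaving out a library (4675 without MK801 replicate 1, 4888 without replicate 3). For MK801 minus core it was 0 to 5941 on leaving out a library, 5941 being without MK801 replicate 3. For MK801 minus invasive it was 1 with a filter of 5 FPKM, 75 with the GC trend removed, 46 with the replicate block as well, 3 in the compared groups alone with the GC trend removed, 782 with genes detected as covariate, and 0 to 42 on leaving out a library.

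Over the 4 tested binding proteins, 234 of 261 alternative values kept their direction and their side of the threshold, 17 passed where the reported value had not, and 10 turned direction, all of IGFBP6. Its invasive minus core value was -0.06 in TPM, -0.47 with the GC trend removed (also with the replicate block or in the compared groups alone) and -0.46 with the covariate. Its MK801 minus core value was -0.10 under the same 3 GC settings and -0.33 with the covariate. Its MK801 minus invasive value was -0.17 without MK801 replicate 1, the low end of a range to 0.62 on leaving out a library. The cause was not tested. Scaling by TPM moved the median gene by -0.30 (invasive minus core) and -0.28 (MK801 minus core), and relative to it IGFBP4 stood at 1.99 and 0.92, IGFBP7 at 2.28 and 1.16, and IGFBP3 at -0.49 and -0.78. From fragments not divided by length, IGFBP4 took 70.9% of the invasive and 33.4% of the core pool, and IGFBP3 21.3% and 59.2%, so that IGFBP3 had more fragments than IGFBP4 in the 3 core libraries and in MK801 replicate 3. Invasive minus core stayed between 1.21 and 2.19 for IGFBP4 and between 1.64 and 5.02 for IGFBP7, the upper end being voom without a pseudocount of 1.

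Equal replicate numbers were not taken to pair the libraries, because the labels do not state what a number marks. Of 9 same-numbered pairs, 5 had correlated deviations above 0.1 (range -0.15 to 0.608). Core and invasive replicates 1, 2 and 3 had an r of -0.007, 0.243 and 0.445, and those of unlike number -0.4 to 0.208. With 3 libraries per group these values cannot settle whether the fractions are paired. The block also joined MK801 libraries to control libraries of the same number. The block changed no other call of a binding protein than those of IGFBP4 and IGFBP7 for invasive minus core. Depth limits IGFBP2 and the core values of IGFBP7.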
